A study of Mus musculus with 6 samples.

Results

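Immune checkpoint ligands are surface or secreted proteins through which a cell restrains the lymphocytes and macrophages that meet it. The genes described here are 10 of the 53465 in the table, chosen by function, with earlier results of these data known. They are Cd274 (which encodes PD-L1), Pdcd1lg2 (PD-L2), Cmtm6 and Cmtm4, Cd80, Cd276 (B7-H3), Cd47, Pvr (CD155), Nectin2 (CD112) and Lgals9 (galectin-9). RNA was measured in EMT6, a mouse mammary carcinoma line grown in culture, in 3 libraries of P-VITRO cells and 3 libraries of PTR-VITRO cells. P-VITRO cells, labelled Parental, were kept with an isotype control antibody, and PTR-VITRO cells, labelled as resistant to anti-PD-L1, were kept with an antibody against PD-L1. In both groups the antibody was present at 0.5 μg/ml for more than 4 weeks, in RPMI medium with serum, and no immune cells were added to the cultures. The labels do not say whether the libraries came from separate cultures, and the study treats replicates as technical unless it says otherwise, so p-values here measure only the spread between libraries.

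PD-L1 and PD-L2 bind PD-1 on activated T cells and dampen signaling from the T cell receptor. CMTM6 and CMTM4 are membrane proteins that hold PD-L1 at the cell surface by keeping it from degradation. CD80 binds CD28, CTLA-4 and, on the same membrane, PD-L1. CD47 binds SIRPα on macrophages and restrains phagocytosis, and galectin-9 binds TIM-3. CD155 binds the receptors TIGIT, CD96 and DNAM-1 on T and NK cells, and CD112 binds TIGIT and DNAM-1. Interferon-γ acting through JAK and STAT proteins and IRF1 is a well-known inducer of Cd274 in tumor cells.

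The total count per library ran from 17757341 to 32426739, and a count of 3, taken as the limit of detection, corresponded to 0.0925 to 0.168 CPM (counts scaled to library size). Of the 53465 genes, 14217 passed the filter on low counts, and edgeR's quasi-likelihood test called 35 of them at a Benjamini-Hochberg adjusted p below 0.05, which is 0.246% of those tested. The keratin genes Krt8 and Krt18 and the mesenchymal gene Vim were abundant, whereas the E-cadherin gene Cdh1 had at most 1 count in a library. The summed level of the 6 epithelial markers ran from 1533 to 1656 CPM over the P-VITRO libraries and from 1620 to 1701 CPM over the PTR-VITRO libraries, and that of the 6 mesenchymal markers was 9417 to 10234 CPM and 8599 to 9009 CPM, with no marker called. The groups did not overlap and the unadjusted p was below 0.05 for Krt18 and Epcam, with higher values in PTR-VITRO, and for Fn1, Col1a1 and Pdgfrb, with lower values. Over all tested genes, 17.6% had non-overlapping groups and 11.4% had an edgeR unadjusted p below 0.05. For Krt8, Krt7 and Krt19 the groups overlapped, with log2 fold changes of 0.01, 0.40 and 0.05, and Epcam had 30 to 70 counts per library. Most of the mesenchymal sum was Fn1, with means of 6645 CPM (P-VITRO) and 5866 CPM (PTR-VITRO), while the log2 fold change was 0.00 for Vim and 0.10 for Pdgfra. The part of these marker levels in the values below was not tested. Ptprc, the pan-leukocyte gene CD45, had 0 counts in all 6 libraries, and the 6 T and NK cell markers together reached at most 0.134 CPM. The 6 myeloid and pan-leukocyte markers summed to 13.1 to 15.1 CPM over the P-VITRO libraries and 11.2 to 12.8 CPM over the PTR-VITRO libraries. Nearly all of this was Cd14, which encodes a lipopolysaccharide co-receptor, with means of 14.0 and 12.1 CPM and groups that did not overlap (log2 fold change -0.21, not called). In a bulk sample, fewer cells that express a gene and less RNA of it per cell cannot be told apart.

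Of the 10 genes, 9 passed the filter, all except Pdcd1lg2, and edgeR called none of these 9 as different between PTR-VITRO and P-VITRO. The count was also 0 with DESeq2 and with limma-voom. At an unadjusted p below 0.05 each of the 3 tools gave 1 of the 9 genes, and 11.4% of all tested genes passed that limit with edgeR. The log2 fold change, PTR-VITRO over P-VITRO, was above 0 for 6 genes and below 0 for 3. Its median over the 9 genes was 0.01, against -0.00 over all tested genes, and the median size without sign was 0.06, against 0.07 over all tested genes. The groups did not overlap for Cmtm6 and Cmtm4, 2 of the 9 genes, both with lower values in PTR-VITRO. Non-overlapping groups were found for 17.6% of all tested genes, 8.27% with higher and 9.33% with lower values in PTR-VITRO, so that 2 of 9 genes is near the background.

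**Figure D1:**
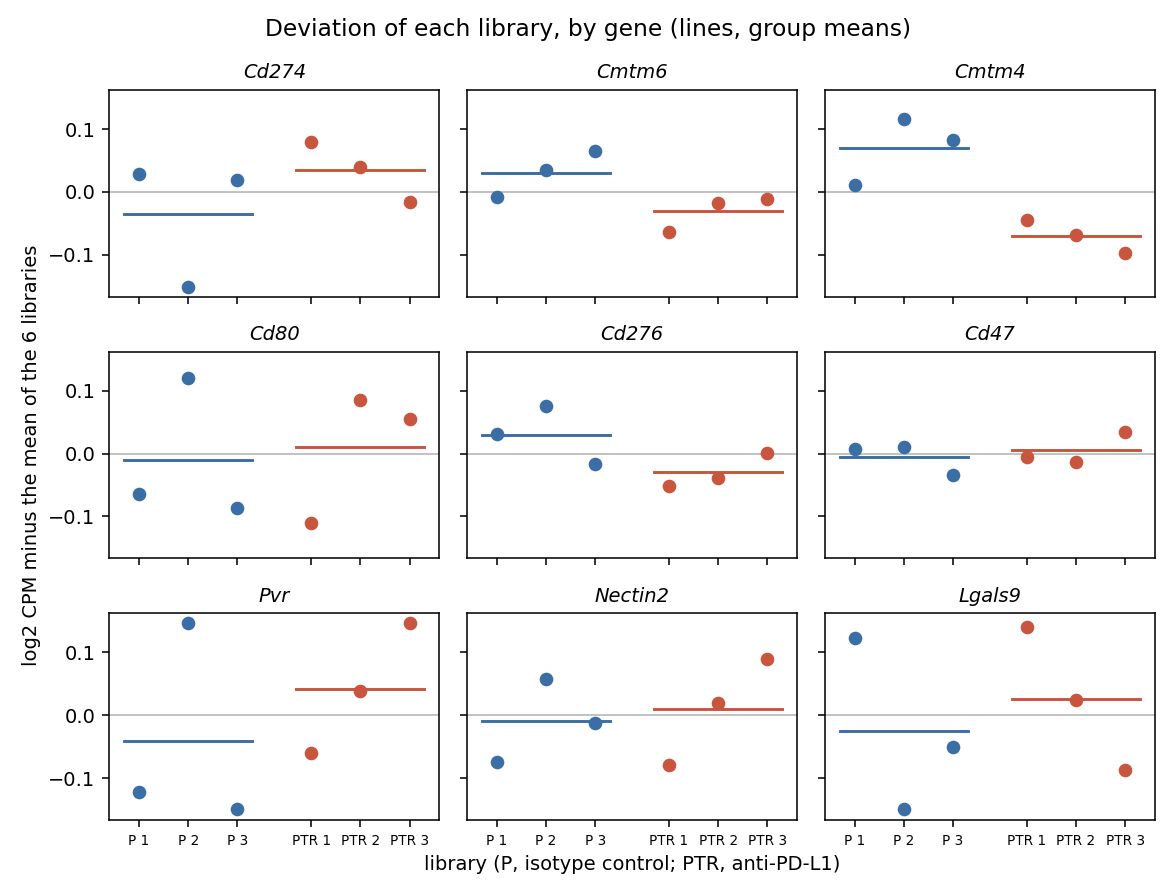
Level of each of the 9 tested genes in each library, as log2 CPM minus the mean of the 6 libraries, with P-VITRO and PTR-VITRO libraries as separate points and a line at each group mean. The PTR-VITRO points lie below all P-VITRO points for Cmtm6 and Cmtm4 and mix with them for the other 7 genes.

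The start regions of the ligand genes differed in sequence. RefSeq promoter entries (GRCm38.p6) were found for 9 of the 10 genes, all except Pvr, and the 250 bases before the start in RefSeq were read 5′ to 3′ on the strand of the gene. Positions below are counted back from that start, which for Cd274 and Lgals9 is not the same base as the gene start in the annotation used for gene coordinates. Those of Cd274 and Pdcd1lg2 are shown because these neighboring genes encode the ligands of PD-1 yet had unlike levels, and that of Lgals9 because it was the one member region with a match to the core of the interferon-stimulated response element. Capitals mark the match to a searched motif, which is the GC box GGGCGG in Cd274 (chr19:29367188-29367437, plus strand, first base at position -31 from the start) and the element core, read on the other strand, in Lgals9 (chr11:78984925-78985174, minus strand, first base at position -55). The region of Pdcd1lg2 (chr19:29410669-29410918, plus strand) held no searched motif.
Cd274: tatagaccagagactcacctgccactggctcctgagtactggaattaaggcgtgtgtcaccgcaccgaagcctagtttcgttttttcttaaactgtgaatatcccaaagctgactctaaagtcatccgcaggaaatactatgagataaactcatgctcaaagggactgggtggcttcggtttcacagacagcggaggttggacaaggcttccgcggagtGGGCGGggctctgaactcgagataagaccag
Pdcd1lg2: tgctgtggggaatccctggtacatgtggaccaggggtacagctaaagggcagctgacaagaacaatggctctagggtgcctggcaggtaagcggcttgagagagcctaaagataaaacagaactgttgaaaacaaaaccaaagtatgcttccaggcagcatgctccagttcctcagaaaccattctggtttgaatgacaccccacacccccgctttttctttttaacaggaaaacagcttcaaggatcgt
Lgals9: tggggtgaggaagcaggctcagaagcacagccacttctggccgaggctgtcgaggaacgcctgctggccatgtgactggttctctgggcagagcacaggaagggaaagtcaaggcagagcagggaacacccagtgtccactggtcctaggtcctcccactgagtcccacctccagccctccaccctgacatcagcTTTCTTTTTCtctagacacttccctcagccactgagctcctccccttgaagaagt

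The motifs were searched as plain letters on both strands of these windows. The interferon element core, spelled as GAAA, any 2 bases and GAAA, was in 2.97% of all 32817 RefSeq promoter windows of the same length, the STAT-bound GAS motif TTCNNNGAA in 7.01%, the GC box GGGCGG in 32.7% and the TATA box TATAAA in 12.4%. GC boxes were in the windows of Cd274 (1 match), Cmtm6 (2), Cmtm4 (4), Cd276 (3), Cd47 (2) and Nectin2 (2), and in those of Pdcd1lg2, Cd80 and Lgals9 there were 0. No member window held the GAS or TATA letters. A match is a description of the letters and not of a bound site. The GC content was 79.6% for Cmtm4, 77.6% for Cd276 and 73.2% for Cd47, with 29, 29 and 30 CpG dinucleotides. Cd274 had a GC content of 50.4% with 11 CpG dinucleotides and Pdcd1lg2 one of 48.4% with 3, both below the median of 52.4% over all promoter windows.

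Cd274 encodes PD-L1, the protein to which the antibody binds. The gene (ENSMUSG00000016496.7) lies at chr19:29367455-29388095 on the plus strand of GRCm38, and 511 of its exonic bases are shared with the antisense gene AC119228.1 on the other strand, which was not analysed here. Its level was 17.9, 15.8 and 17.8 CPM in P-VITRO replicates 1, 2 and 3, and 18.5, 18.0 and 17.3 CPM in PTR-VITRO replicates 1, 2 and 3, from 309 to 601 counts per library. The lowest library was P-VITRO 2, the highest was PTR-VITRO 1, and the groups overlapped. The mean of the P-VITRO libraries was 17.2 ± 1.18 CPM and that of the PTR-VITRO libraries 18.0 ± 0.60 CPM (SD, n = 3 each), and the log2 fold change was 0.07 (SE 0.07, 95% interval -0.08 to 0.23, edgeR adjusted p = 0.732). In percent the interval ran from -5.40 to 17.2. Leaving out P-VITRO 2 gave the smallest estimate, 0.02 on the log2 scale, and the estimate stayed above 0 whichever library was left out.

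Pdcd1lg2 encodes PD-L2, the other ligand of PD-1. The gene (ENSMUSG00000016498.9, chr19:29410919-29471161, plus strand) begins 22.8 kb after the end of Cd274. It had 0 counts in all 6 libraries, which at the limit of 3 counts allows up to 0.0472 CPM per kb of exon in the deepest library and 0.0857 CPM per kb in the shallowest. Per exon length, Cd274 was at least 75.4, 85.4 and 77.6-fold higher than Pdcd1lg2 in P-VITRO 1, 2 and 3, and at least 108.5, 92.2 and 55.8-fold higher in PTR-VITRO 1, 2 and 3. PD-L2 RNA was thus not detected at this depth in either group, and each bound follows the Cd274 count of its library.

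Cmtm6 and Cmtm4 encode the related membrane proteins that keep PD-L1 from degradation. Cmtm6 (ENSMUSG00000032434.9, chr9:114731116-114749344, plus strand) was at 67.0, 69.0 and 70.4 CPM in the P-VITRO libraries and 64.4, 66.5 and 66.8 CPM in the PTR-VITRO libraries. All 3 PTR-VITRO libraries lay below the lowest P-VITRO library, by a margin of under 1 CPM. Its mean of the P-VITRO libraries was 68.8 ± 1.74 CPM and that of the PTR-VITRO libraries 65.9 ± 1.31 CPM, and its log2 fold change was -0.06 (SE 0.04, 95% interval -0.15 to 0.03, edgeR adjusted p = 0.595).

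Cmtm4 (ENSMUSG00000096188.1, chr8:104348191-104395807, minus strand) was at 50.8, 54.6 and 53.4 CPM in the P-VITRO libraries and 48.9, 48.1 and 47.1 CPM in the PTR-VITRO libraries. The groups did not overlap here either, and the gap was wider than for Cmtm6. The mean of the P-VITRO libraries was 52.9 ± 1.95 CPM and that of the PTR-VITRO libraries 48.0 ± 0.872 CPM, and the log2 fold change was -0.14 (SE 0.04, 95% interval -0.24 to -0.04). This was the one gene of the 9 with an unadjusted p below 0.05, and it was not called after adjustment (edgeR adjusted p = 0.255). Across the other settings its adjusted p ran from 0.219 to 0.543, and with 1 library left out from 0.267 to 0.567. Within each library, the ratio of Cmtm4 to Cmtm6 counts does not depend on the scaling between libraries. It was 0.759, 0.792 and 0.758 in the P-VITRO libraries and 0.759, 0.723 and 0.706 in the PTR-VITRO libraries, so that PTR-VITRO 1 lay among the P-VITRO libraries. The mean ratios were 0.770 ± 0.0195 (P-VITRO) and 0.729 ± 0.0272 (PTR-VITRO). A two-sided exact permutation test gave p = 0.3 (adjusted over 3 ratios 0.6, n = 3 each). Its smallest possible p was 0.1, so it could not reach 0.05 and settles nothing here. Of the 3 ratios, that of Pdcd1lg2 to Cd274 was 0 in every library, so its p was fixed in advance.

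Cd80 and Cd276 belong to the B7 family, as do the PD-1 ligands. Cd80 (ENSMUSG00000075122.4, chr16:38455561-38496335, plus strand), best known from antigen-presenting cells, was at 59.6, 67.7 and 58.6 CPM in the P-VITRO libraries and 57.7, 66.0 and 64.7 CPM in the PTR-VITRO libraries. The libraries of both groups were interleaved. The mean was 61.9 ± 4.97 CPM and 62.8 ± 4.47 CPM, and the log2 fold change was 0.01 (SE 0.07, 95% interval -0.13 to 0.16, edgeR adjusted p = 0.960), with a sign that turned when any of 4 libraries was left out. Its level per exon length was 16.8 CPM per kb, above that of 76.5% of all tested genes.

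Cd276 encodes B7-H3, which is widely present on carcinoma cells. The gene (ENSMUSG00000035914.11, chr9:58524298-58555437, minus strand) shares 416 exonic bases with Gm10657 on the other strand, which had at most 6.59 counts. Its level was 171, 177 and 166 CPM in the P-VITRO libraries and 162, 163 and 168 CPM in the PTR-VITRO libraries. The groups overlapped only through P-VITRO 3 and PTR-VITRO 3. The mean was 171 ± 5.49 CPM and 164 ± 3.16 CPM, and the log2 fold change was -0.06 (SE 0.04, 95% interval -0.14 to 0.02, edgeR adjusted p = 0.584), and it was -0.04 without P-VITRO 2.

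Cd47 encodes the signal that restrains phagocytosis. The gene (ENSMUSG00000055447.18, chr16:49800533-49915010, plus strand) was at 286, 286 and 278 CPM in the P-VITRO libraries and 283, 282 and 291 CPM in the PTR-VITRO libraries. It was the steadiest of the 9 genes, and the SD of its log2 CPM over the 6 libraries was at percentile 1.80 of the 11804 tested genes with a mean count of at least 50. The mean was 283 ± 4.76 CPM and 285 ± 5.09 CPM. The log2 fold change was 0.01 (SE 0.03, 95% interval -0.06 to 0.08, edgeR adjusted p = 0.939), and in percent the interval ran from -4.22 to 5.92.

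Pvr and Nectin2 encode the nectin-family ligands CD155 and CD112 and lie on the same strand of chromosome 7, separated by 153.1 kb. Pvr (ENSMUSG00000040511.14, chr7:19903578-19921160, minus strand) was at 209, 252 and 205 CPM in the P-VITRO libraries and 219, 234 and 252 CPM in the PTR-VITRO libraries. P-VITRO 2 stood at the top of the range, beside PTR-VITRO 3, while the other P-VITRO libraries stood at the bottom. The mean was 222 ± 26.0 CPM and 235 ± 16.9 CPM, and the log2 fold change was 0.08 (SE 0.08, 95% interval -0.09 to 0.24, edgeR adjusted p = 0.749). Pvr varied most of the 9 genes, with an SD of log2 CPM at percentile 75.7. With 1 library left out, the log2 fold change ran from 0.02 (without P-VITRO 3) to 0.18 (without P-VITRO 2), and it was not called in any of these fits (edgeR adjusted p from 0.176 to 0.957).

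Nectin2 (ENSMUSG00000062300.14, chr7:19716644-19750483, minus strand) shares 135 exonic bases with the antisense gene Gm20512. It was at 122, 134 and 128 CPM in the P-VITRO libraries and 122, 130.3 and 137 CPM in the PTR-VITRO libraries, with both groups spread over the same range. The mean was 128 ± 5.92 CPM and 129.6 ± 7.57 CPM, and the log2 fold change was 0.02 (SE 0.05, 95% interval -0.10 to 0.13, edgeR adjusted p = 0.936). The ratio of Nectin2 to Pvr counts was 0.583, 0.531 and 0.621 in the P-VITRO libraries and 0.557, 0.556 and 0.542 in the PTR-VITRO libraries. Its mean was 0.578 ± 0.0454 and 0.552 ± 0.00837, with p = 0.4 in a two-sided exact permutation test (adjusted over 3 ratios 0.6, n = 3 each). Here too the smallest possible p was 0.1, so the test could not reach 0.05.

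Lgals9 encodes galectin-9, a carbohydrate-binding protein that is secreted and also held at the cell surface. The gene (ENSMUSG00000001123.15, chr11:78962974-78984946, minus strand) was at 121, 100.3 and 107 CPM in the P-VITRO libraries and 122, 113 and 105 CPM in the PTR-VITRO libraries. The highest library of each group was replicate 1, and the groups overlapped. The mean was 109.5 ± 10.5 CPM and 113 ± 8.91 CPM, and the log2 fold change was 0.05 (SE 0.07, 95% interval -0.10 to 0.21, edgeR adjusted p = 0.825).

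**Figure D2:**
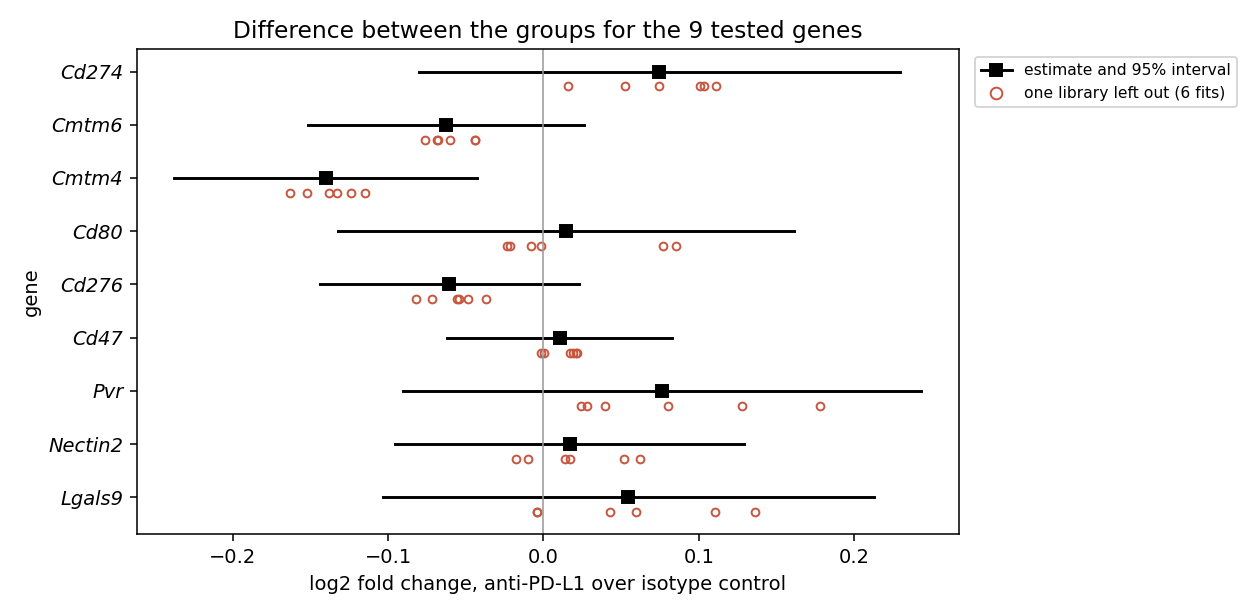
Log2 fold change of PTR-VITRO over P-VITRO for the 9 tested genes (squares, bars for the 95% interval) and the estimates with 1 library left out (open circles). The interval lies below 0 for Cmtm4 (-0.24 to -0.04) and spans 0 for the other 8 genes.

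The 10 genes covered a wide range of RNA levels, compared here as CPM per kb of exon over all 6 libraries. Lgals9 was highest with 52.2 CPM per kb, followed by Cd276 with 45.9 and Cd47 with 45.3. Next came Pvr with 37.4 and Nectin2 with 36.8. Cmtm6 had 19.6, Cd80 16.8, Cmtm4 6.53 and Cd274 4.85 CPM per kb, and Pdcd1lg2 was at 0. The ranges over libraries overlapped between Lgals9 and Cd276, between Cd276 and Cd47 and between Pvr and Nectin2, so that the order within these pairs is not settled by these libraries. All other neighbors in the order had separate ranges, although Cmtm4 was only 1.35 times as high as Cd274. Among the 10 genes, Cd274 was the lowest of the detected ligands. It stood above 47.3% of all tested genes per exon length, whereas Lgals9, Cd276, Cd47, Pvr and Nectin2 stood above 88.5% to 91.7% of them. Exon length was taken as the union of all annotated exons, and the length in use in these cells was not measured.

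**Figure D3:**
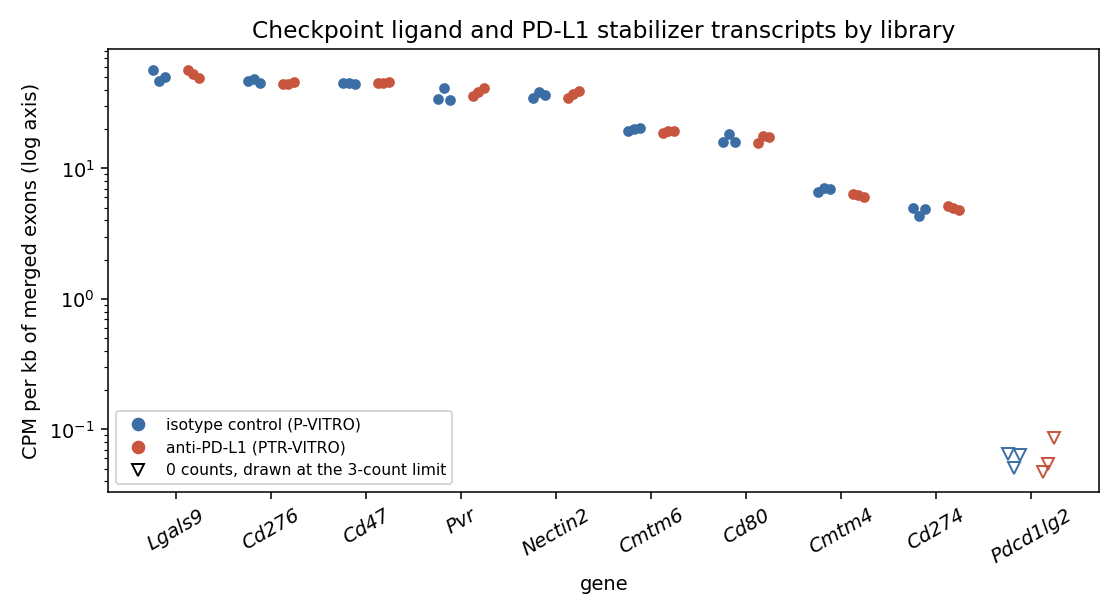
RNA level of each gene in each library, in CPM per kb of exon on a log axis, for P-VITRO and PTR-VITRO. Lgals9, Cd276, Cd47, Pvr and Nectin2 lie between 33.6 and 57.3 CPM per kb, Cd274 between 4.36 and 5.12, and Pdcd1lg2 (0 counts) is drawn at its limit of detection.

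The genes did not move as a block from library to library. P-VITRO 2 was the lowest library for Cd274 and Lgals9 and the highest for Cmtm4, Cd80, Cd276 and Pvr. PTR-VITRO 1 was the highest for Cd274 and Lgals9 and the lowest for Cmtm6, Cd80, Cd276 and Nectin2. These libraries also differed most from the others of their group over 11809 genes. The reduced chi-square, which is larger for less alike libraries, was 8.70 and 7.88 for pairs with P-VITRO 2, against 2.80 for P-VITRO 1 and 3. It was 8.23 and 7.28 for pairs with PTR-VITRO 1, against 4.57 for PTR-VITRO 2 and 3. Over the log2 CPM of the 6 libraries, Pearson's r with Cd274 was 0.83 for Lgals9 and -0.87 for Cd276, and for the other 6 tested genes it lay between -0.38 and -0.71. These 6 points share their libraries and scaling factors, and the values are a description. Among 11803 genes with a mean count of at least 50, the patterns most like that of Cd274 were those of Ube2e3 (r = 0.996), Ccz1 (0.992), Chtf18 (0.991), Dynlt3 (0.991) and Ntan1 (0.991), none of them called. With 6 points and this many genes, values of r this high carry little weight.

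A list of 33 other checkpoint and costimulatory genes was read beside the 10 genes, mostly ligands but also the immunoregulatory enzyme genes Nt5e, Entpd1 and Ido1 and the receptor gene Cd40. Of these 33, 22 were tested and 5 had 0 counts in every library, among them Cd70, Cd48 and Cd200. None of the 22 was called by edgeR, and 2 had an unadjusted p below 0.05, against 11.4% of all tested genes. The groups did not overlap for 2 genes with higher and 2 with lower values in PTR-VITRO, against 8.27% and 9.33% of all tested genes. The median log2 fold change was 0.02. Clec2d, which encodes a ligand of an inhibitory NK cell receptor, had a P-VITRO mean of 11.7 ± 0.897 CPM and a PTR-VITRO mean of 14.2 ± 0.411 CPM (log2 fold change 0.28, edgeR adjusted p = 0.199). Tnfsf18, which encodes the costimulatory ligand GITRL, had means of 5.39 ± 0.565 and 3.85 ± 0.601 CPM (log2 fold change -0.51, edgeR adjusted p = 0.213), and it was called in 1 setting, without the filter on low counts (adjusted p = 0.0391). The next smallest p-values belonged to Raet1e, an NKG2D ligand gene (log2 fold change 0.22, adjusted p = 0.441, and 0.09 without P-VITRO 2), and to Nt5e, the gene of the ectoenzyme CD73 (-0.06, adjusted p = 0.555, and -0.03 without P-VITRO 2). Raet1e is 96.0% identical to Raet1d over 1437 bases, so that the division of reads between them is uncertain. By level, Lgals1 led the list with 3121 CPM per kb of exon, followed by Lgals3 with 382 and Nt5e with 55.5, each a mean above those of the 10 genes.

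Receptors for these ligands belong mainly to lymphocytes and macrophages, and 15 of them were listed. Pdcd1, which encodes PD-1, had at most 1 count in a library, and Ctla4, Icos, Cd226, Sirpa and Klrc1 had 0 counts in every library. The filter was passed by 4 receptors, Tigit, Havcr2, Siglecg and Lag3, of which edgeR called none. For Tigit, Havcr2 and Siglecg the unadjusted p was below 0.05 and the groups did not overlap, with higher values in PTR-VITRO. Over all tested genes, 11.4% had such a p and 8.27% had non-overlapping groups with higher values in PTR-VITRO. The median log2 fold change of the 4 genes was 0.21.

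Tigit (ENSMUSG00000071552.4, chr16:43648867-43664146, minus strand), the gene of the receptor that binds CD155 and CD112, was at 54.8, 59.2 and 57.8 CPM in the P-VITRO libraries and 63.2, 66.6 and 73.3 CPM in the PTR-VITRO libraries. Its mean was 57.3 ± 2.24 CPM and 67.7 ± 5.15 CPM, and the log2 fold change was 0.23 (95% interval 0.11 to 0.36, edgeR adjusted p = 0.155). Without the filter on low counts it was called, with an adjusted p of 0.00176, whereas with 1 library left out the adjusted p ran from 0.0756 to 0.414. At 68.0 CPM per kb of exon, Tigit stood above each of the 10 ligand and stabilizer genes, in libraries where the T and NK cell markers were at or near 0. Its annotated exons span 919 bases, fewer than those of any of the 10 genes. In CPM, Tigit lay below Cd276, Cd47, Pvr, Nectin2 and Lgals9. The annotation showed no other gene that overlaps Tigit. Havcr2, the gene of TIM-3, which binds galectin-9, was low, with 19 to 47 counts per library. It was at 0.813, 0.901 and 0.827 CPM in the P-VITRO libraries and 1.45, 1.31 and 1.74 CPM in the PTR-VITRO libraries (log2 fold change 0.80, edgeR adjusted p = 0.208). Siglecg, which encodes an inhibitory lectin of B cells, had means of 20.5 ± 2.03 and 23.6 ± 1.23 CPM (log2 fold change 0.19, edgeR adjusted p = 0.371, and 0.13 without P-VITRO 1). Lag3 had 8 to 21 counts per library and a log2 fold change of -0.04 (adjusted p = 0.989).

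The regulators of PD-L1 and CD47 formed a list of 36 genes, from the interferon-γ receptor and JAK-STAT genes to ubiquitin ligases, glycosylation enzymes and the CD47-modifying enzyme gene Qpctl. All 36 were tested and edgeR called none, with 3 at an unadjusted p below 0.05. The log2 fold change was above 0 for 14 and below 0 for 22, with a median of -0.02, and the groups did not overlap for 7, all with lower values in PTR-VITRO. The shares over all tested genes were 11.4% for the unadjusted p and 9.33% for non-overlapping groups with lower values. Stat3, a transcription factor downstream of IL-6-type cytokines, had a P-VITRO mean of 77.1 ± 2.93 CPM and a PTR-VITRO mean of 69.7 ± 2.78 CPM (log2 fold change -0.14, edgeR adjusted p = 0.262). Stt3a, a catalytic subunit of the N-glycosylation complex, was at 354 ± 6.42 CPM and 332 ± 7.95 CPM (-0.10, edgeR adjusted p = 0.301). Irf2, an interferon regulatory factor, was at 52.6 ± 1.95 CPM and 48.4 ± 0.387 CPM (-0.12, edgeR adjusted p = 0.310). Ifngr2, a chain of the interferon-γ receptor, followed with -0.08 (adjusted p = 0.533). The highest levels belonged to Pdia3 (204 CPM per kb of exon), Myc (184) and Cdk4 (143). Their log2 fold changes were 0.02, -0.04 and 0.00, and Cdk4 shares exonic bases with the opposite-strand gene Tspan31. Irf1, an inducer of Cd274 named here after its values were seen, was at 116 ± 8.54 CPM (P-VITRO libraries) and 119.9 ± 3.81 CPM (PTR-VITRO libraries) and was not called.

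**Figure D4:**
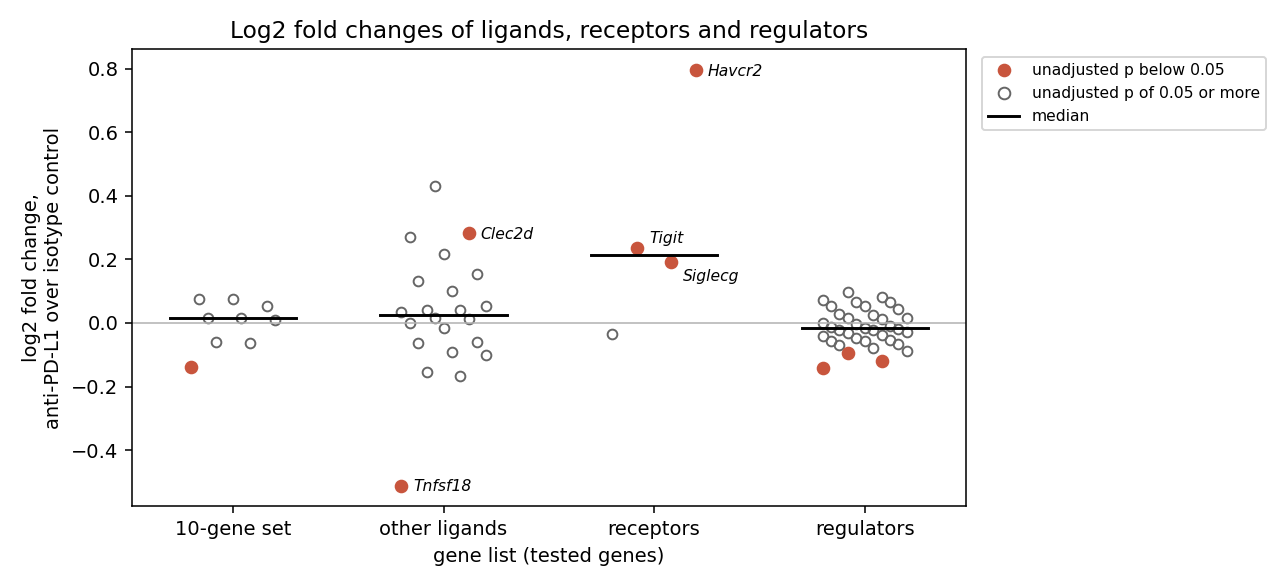
Log2 fold change of PTR-VITRO over P-VITRO for each tested gene of the 10-gene set (9 genes) and of the lists of other ligands (22), receptors (4) and regulators (36), with filled points for an unadjusted p below 0.05 and a line at the median. No point is called after adjustment, and the medians are 0.01, 0.02, 0.21 and -0.02.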

How the data were processed

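Polyadenylated RNA was sequenced from 6 libraries, 3 per group as labelled. The deposited table holds estimated counts per gene (RSEM expected counts), which the authors made from stranded libraries and did not scale. The submitters' processing notes name FastQC 0.11.5, STAR 2.6.0a, RSEM 1.3.1 and the genome GRCm38. Whether RSEM used the strand is not given in the sources used here, so reads in exonic bases shared with an opposite-strand gene may be misassigned.

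Estimated counts were rounded and filtered with filterByExpr (minimum count 10, minimum total 15), scaled by the upper quartile and compared by edgeR (version 4.0.16, R version 4.3.3), whose quasi-likelihood test had the group and no other term. Genes with a Benjamini-Hochberg adjusted p below 0.05 over all 14217 tested genes are called. SE and 95% intervals came from the F statistic. CPM were scaled by library size and upper quartile factor and are given as mean ± SD over 3 libraries, and the level per kb divides them by the union of exons in GENCODE M21. Limits of detection (3 counts) cover counting error only. As alternatives, scaling was done by TMM or left out, the test was replaced by DESeq2 1.42.0 or limma-voom (limma 3.58.1), the filter was dropped or raised to at least 10 counts in every library, the replicate number entered as a block, ratios were taken on the log2 scale, and each library was left out in turn. Of 53465 identifiers, 50604 matched a symbol with the same version, 2670 with another version and 191 had none. Copies were searched with BLAST+ 2.17.0. The steps were tested on simulated data.

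Members, lists and tests were chosen with earlier results of these data known. Named are all 10 members, and from each list (other ligands, receptors, regulators) every called gene, the 4 tested genes with the smallest p and the 3 with the highest level per exon length. For likeness, the 5 genes most correlated with Cd274 are named. Other names, markers included, were chosen after their values were seen.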

Additional observations from a re-analysis of the deposited data

How the results depend on the processing

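The calls over all tested genes moved with the setting, from 35 to 111 with DESeq2, to 400 without the filter on low counts, to 54 with at least 10 counts in every library and to 68 with a replicate block, and between 8 and 64 with 1 library left out (8 without PTR-VITRO 3, 9 without P-VITRO 3, 11 without P-VITRO 1, 12 without PTR-VITRO 2, 64 without P-VITRO 2). The cause was not tested. None of the 10 genes was called in any setting, and the 63 comparisons of the 9 tested genes with other settings kept their direction. Whether equal replicate numbers pair the libraries was not settled. The r of same-numbered deviations was 0.084, 0.108 and -0.0726, against -0.143 to 0.0621 for unlike numbers. The block added no call among the 10 genes. Without the filter, 1 gene of the ligand list (Tnfsf18) and 1 of the receptor list (Tigit) were called. In that setting the median log2 fold change of the receptor list was -0.03 over 10 genes, against 0.21 over the 4 that passed the filter. Leaving out 1 library turned the sign in 9 of 54 comparisons of the 9 tested genes, with log2 fold changes of -0.0235 to 0.0854 for Cd80, -0.00158 to 0.0217 for Cd47, -0.0177 to 0.0624 for Nectin2 and -0.00428 to 0.136 for Lgals9. In the lists the same was seen for Lgals3 (-0.0263 to 0.00612), Lag3 (-0.169 to 0.0670), Pdia3 (-0.0185 to 0.0503), Myc (-0.0580 to 0.00721) and Cdk4 (-0.00828 to 0.0159), and Cdk4 was at -0.0045 with at least 10 counts in every library. With 1 library left out, the median log2 fold change of the 9 tested genes ran from -0.0081 to 0.0172. That of the ligand list ran from -0.0051 to 0.0499 and that of the regulator list from -0.02455 to 0.0084. The difference in the ratio of Cmtm4 to Cmtm6 ran from -0.0556 to -0.029, and that of Nectin2 to Pvr from -0.0500 to -0.00486. Depth limits what can be said of Pdcd1lg2 (0 counts) and of genes with few counts such as Havcr2 and Lag3. The log2 ratio of Pdcd1lg2 to Cd274 could not be computed with 0 counts.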

Other observations

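Genes of 4 ligands of the activating NK cell receptor NKG2D were expressed in both groups, and these 4 were picked out after their values were seen. Ulbp1 was at 29.0 CPM per kb of exon in P-VITRO and 29.4 in PTR-VITRO, and H60b at 9.15 CPM per kb in both. Raet1d was at 9.34 and 10.2 CPM per kb and Raet1e at 9.2 and 10.6 CPM per kb, and the division of reads between these near-identical genes is uncertain. None of the 4 was called by edgeR. Cd40, which encodes a costimulatory receptor of antigen-presenting cells, was at 9.70 CPM per kb in P-VITRO and 10.5 in PTR-VITRO, above the level of Cd274 in both groups.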
